A study of Mus musculus with 31 samples.

Results

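Il12a, Il12b, Il23a, Il27 and Ebi3 encode the chains of the cytokines IL-12, IL-23, IL-27 and IL-35. These 5 genes were taken by name, through their Ensembl identifiers, from 55288 identifiers found in either of the deposited count tables of 2 RNA-seq experiments on mouse macrophages. All 5 were present in both tables. In experiment 1 all 5 passed the filter on low counts, and in experiment 2 Il12a, Il12b, Il27 and Ebi3 passed it and Il23a did not. The series asked how BRD9, part of a chromatin remodelling complex known as non-canonical BAF, acts in the inflammatory response of macrophages.

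Every library came from bone marrow-derived macrophages of male C57BL/6J mice aged 6 to 12 weeks, grown with L-929 conditioned medium before a change to serum-free medium. Experiment 1 held 3 libraries in each of 7 groups. One had vehicle and another LPS alone. With LPS, 3 groups had a single compound (iBRD9 + LPS, dBRD9 + LPS or Dex + LPS) and 2 had both Dex and a BRD9 compound (Dex + dBRD9 + LPS or Dex + iBRD9 + LPS). Experiment 2 held 2 libraries in each of 5 groups, namely vehicle, IFNγ + LPS, and IFNγ + LPS with dBRD9, with Dex or with both (Dex + dBRD9 + IFNγ + LPS). Dex is dexamethasone, a synthetic glucocorticoid, and was used at 1 µM. iBRD9, an inhibitor of BRD9, was used at 3 or 10 µM, and its dose in each sample is not labelled. dBRD9, a degrader of BRD9, was used at 250 nM. Compounds were given overnight, and LPS, a component of the outer membrane of Gram-negative bacteria that signals through TLR4, was then added at 100 ng/ml for 3 h. The dose and timing of interferon-gamma (IFNγ) were not stated in the labels. Whether replicates came from separate animals or cultures is not labelled either, so the p-values below measure only the spread between these samples.

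Each of these cytokines is a pair of chains made from separate genes, and a chain can belong to more than one of them. Il12b encodes p40, which joins with p35 (Il12a) to form IL-12 and with p19 (Il23a) to form IL-23. Ebi3 encodes a receptor-like chain that joins with p28 (Il27) to form IL-27 and has been described as joining with p35 to form IL-35. Macrophages and dendritic cells make these cytokines after sensing microbes. IL-12 drives interferon-gamma production by T and NK cells, IL-23 sustains IL-17-producing T cells, and IL-27 both promotes early T cell responses and restrains later ones.

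The genes lie on different chromosomes of mm10. Il12a (ENSMUSG00000027776) lies at chr3:68690644-68698547, Il12b (ENSMUSG00000004296) at chr11:44400063-44414033 and Ebi3 (ENSMUSG00000003206) at chr17:55952640-55957022, all on the plus strand. Il23a (ENSMUSG00000025383) lies at chr10:128296139-128298752 and Il27 (ENSMUSG00000044701) at chr7:126589010-126594941, both on the minus strand. Exons of Ebi3 share 270 bp (23.4% of their length) with the antisense gene Gm16712, and those of Il27 share 103 bp (10.1%) with Apobr on the other strand. The strand setting is not given in the sources used here, so reads from these stretches cannot be told apart.

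The promoters of Il12a, Il12b and Ebi3 are shown, since these genes had an entry in the promoter table used here. Il12a pairs with both of the others. Under LPS in experiment 1 it differed in direction from Il12b with iBRD9 and from Ebi3 with Dex. It moved in the same direction as Ebi3 with iBRD9. Each run is the 250 bases before a RefSeq start (GRCm38.p6, the assembly of mm10), on the plus strand, 5′ to 3′. The windows are chr3:68690394-68690643 for Il12a, chr11:44399813-44400062 for Il12b and chr17:55952373-55952622 for Ebi3. Capitals mark matches to the motifs searched.
Il12a: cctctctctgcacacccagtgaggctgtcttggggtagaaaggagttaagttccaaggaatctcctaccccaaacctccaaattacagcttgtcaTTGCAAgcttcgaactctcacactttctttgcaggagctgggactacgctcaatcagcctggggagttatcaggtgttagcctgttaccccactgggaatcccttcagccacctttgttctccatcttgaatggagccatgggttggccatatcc
Il12b: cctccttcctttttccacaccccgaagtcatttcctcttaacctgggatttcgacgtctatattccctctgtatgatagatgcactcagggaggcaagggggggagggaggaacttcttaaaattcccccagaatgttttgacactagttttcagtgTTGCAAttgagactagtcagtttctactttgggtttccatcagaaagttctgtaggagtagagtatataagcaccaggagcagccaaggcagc
Ebi3: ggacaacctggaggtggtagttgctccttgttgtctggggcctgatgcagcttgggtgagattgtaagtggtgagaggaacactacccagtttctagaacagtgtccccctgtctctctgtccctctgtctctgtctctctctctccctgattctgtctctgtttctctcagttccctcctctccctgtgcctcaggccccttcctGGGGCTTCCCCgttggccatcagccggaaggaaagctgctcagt
The motifs, searched on both strands, were GAAA and GAAA with any 2 bases between (interferon-stimulated response element), GGG and CC with any 5 bases between (κB), TTGCAA (C/EBP), TGANTCA (AP-1) and AGAACA and TGTTCT with any 3 bases between (the palindromic element bound by the glucocorticoid receptor). TTGCAA began 155 bases before the start of Il12a and 93 bases before that of Il12b, and 5.34% of 32851 promoter windows of the same length hold it. Ebi3 held 2 overlapping κB matches, beginning 44 and 43 bases before its start, and 45.8% of windows hold such a match. A second RefSeq start of Il12a, at base 68691424 of chromosome 3, had 2 overlapping κB matches, beginning 113 and 112 bases before it. None of these windows held the glucocorticoid receptor element, which 0.00913% of all windows hold, nor the interferon-stimulated response element (2.98%) or TGANTCA (6.75%). A match is a description of the letters only. Of the 5 genes, 3 were matched in the RefSeq promoter table used here, and Il23a and Il27 were not.

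Libraries held 19.3 to 29.9 M counts (M, mega) in experiment 1 and 14.5 to 17.9 M in experiment 2. All 7 macrophage markers were over 1 CPM (counts per M of TMM-scaled library totals) in every group, and those of T, NK and B cells summed to at most 0.477 CPM in any library. Markers of 5 stromal genes summed to at most 0.385 CPM in experiment 1 and to 32.6 to 66.4 CPM in experiment 2. The glucocorticoid target Fkbp5 averaged 526 to 538 CPM in the groups of experiment 1 with Dex and 27.8 to 35.7 CPM in the LPS groups without it. Brd9 mRNA averaged 42.9 CPM under LPS, 35.4 CPM under dBRD9 + LPS and 25.1 CPM under iBRD9 + LPS, and checks no label, since both compounds act on the protein. Replicate 1 of Dex + LPS and replicate 1 of Dex + dBRD9 + LPS stood apart from their groups, with deviations that fell with exon length over 7593 genes (Spearman's rho across genes of -0.680 and -0.516). The tests of the chains that rest on them are given with and without both. Among the other groups of experiment 1 the widest split with exon length was in dBRD9 + LPS (rho of -0.331, 0.430 and -0.0743). In experiment 2 the 2 vehicle libraries also parted with exon length (rho of -0.636 and 0.636 over 7389 genes), as did those of Dex + IFNγ + LPS (0.572 and -0.572). Those of IFNγ + LPS parted less (-0.292 and 0.292). With 2 libraries a group such deviations mirror each other, so neither can be said to stand apart.

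LPS induced all 5 genes, and 3 of them from no reads at all. Il12a, Il12b and Il23a had 0 reads in the 3 vehicle libraries. Under LPS the 3 libraries held 33.7, 34.4 and 34.4 CPM of Il12a, 131, 122 and 126 CPM of Il12b, and 34.7, 34.9 and 30.5 CPM of Il23a. Set against a floor of 3 reads over the vehicle group, these are at least 1009-fold higher for Il12a, at least 3724-fold higher for Il12b and at least 986-fold higher for Il23a. Il27 was detectable without stimulation, at 0.582, 0.698 and 0.710 CPM, and reached 352, 343 and 338 CPM under LPS, a 519-fold difference of means. Ebi3 was the chain already present in resting cells, with 8.04, 9.45 and 8.97 CPM in the vehicle libraries and 46.5, 42.4 and 43.4 CPM under LPS, a 5.0-fold difference of means. In edgeR's quasi-likelihood test, all 5 genes were called higher, each at a Benjamini-Hochberg adjusted p of at most 6.4e-17, in a comparison where 75.3% of all 12662 genes tested were called in either direction, 36.1% higher and 39.3% lower. In bulk samples, fewer cells that make a transcript and less of it per cell cannot be told apart.

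Per kb of exon, the chains that pair were far from equal in level under LPS. Il27 had 337 ± 7.05 CPM per kb (SD, n = 3) and its partner Ebi3 had 38.2 ± 1.86 CPM per kb, so that the mean ratio of Ebi3 to Il27 was 0.113. The shared chain Il12b had 64.1 ± 2.20 CPM per kb, against 20.1 ± 0.248 CPM per kb for Il12a and 14.9 ± 1.11 CPM per kb for Il23a. Transcripts of the shared p40 chain therefore stood at 3.19 times the level of p35 and at 4.33 times that of p19. In resting cells the order within the IL-27 pair was the opposite, with 11.8 times as much Ebi3 as Il27 per kb. These lengths are of all exons of a gene together, and taking the longest transcript gave 26.2 CPM per kb for Il12a and 19.4 CPM per kb for Il23a.

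**Figure D1:**
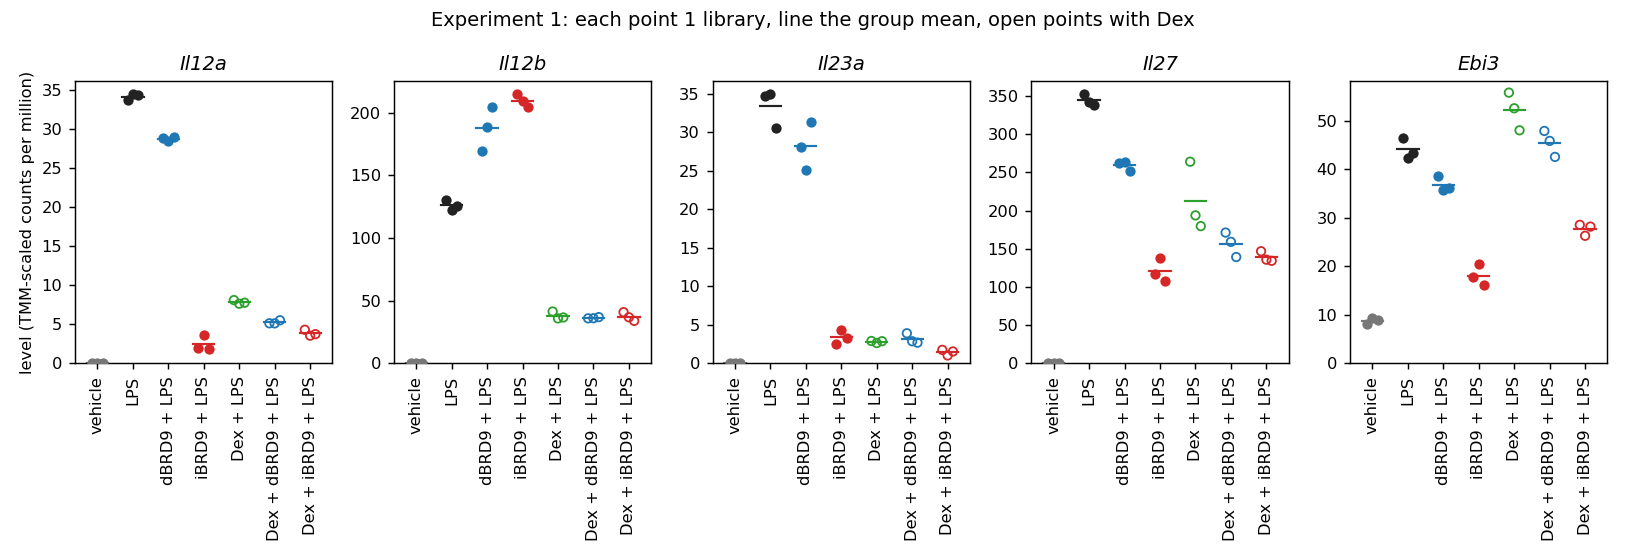
Level of each chain gene in the 21 libraries of experiment 1 in TMM-scaled CPM on linear axes that start at 0, with 1 point per library, a line at the group mean and open points for groups with Dex. Il12b under iBRD9 + LPS (204 to 215 CPM) stands above LPS alone (122 to 131 CPM), while Il12a, Il23a, Il27 and Ebi3 under iBRD9 + LPS stand below it.

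iBRD9 moved the chains of IL-12 and IL-23 in opposite directions. Il12a, the p35 chain, had 1.93, 3.69 and 1.84 CPM under iBRD9 + LPS, 7.27% of the mean under LPS alone. Its log2 fold change against LPS was -3.79 (SE 0.139, adjusted p = 3.2e-15, edgeR). Il12b, the p40 chain, had 215, 209.6 and 204 CPM, 166% of the mean under LPS alone. All 3 of these libraries lay above all 3 with LPS alone, with a log2 change of 0.73 (SE 0.0693, adjusted p = 1.1e-08, edgeR). Il23a, the p19 chain, had 2.54, 4.39 and 3.33 CPM, or 10.3% of the mean under LPS alone (log2 fold change -3.30, SE 0.149, adjusted p = 8.6e-14, edgeR). The 2 chains that use p40 thus fell together while p40 itself rose. Replicate 2 had the highest Il12a and the highest Il23a of the 3 iBRD9 + LPS libraries.

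Both chains of IL-27 also fell with iBRD9. Il27 had 116, 138 and 108 CPM (log2 fold change -1.51, SE 0.105, adjusted p = 2.4e-11, edgeR). Ebi3 had 17.8, 20.4 and 16.1 CPM (log2 fold change -1.29, SE 0.0806, adjusted p = 3.9e-12, edgeR). Neither gene's libraries overlapped those with LPS alone, and both remained above the vehicle libraries. In all, 1 chain was called higher and 4 were called lower with iBRD9, in a comparison where 61.9% of all genes were called (31.4% higher and 30.5% lower). Every setting tried kept these 5 calls.

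Markers of 2 other cell types moved with iBRD9 at low levels. The 7 neutrophil markers summed to 15.7 to 22.1 CPM under LPS and 0.940 to 2.31 CPM under iBRD9 + LPS, with Ly6g and Mpo at 0 reads in both groups. The 7 dendritic cell markers summed to 7.27 to 8.03 CPM under LPS and 1.67 to 2.32 CPM under iBRD9 + LPS, with Cd209a at 0 reads in both. Zbtb46 and Xcr1 made most of that sum under LPS, at means of 3.24 and 3.87 CPM. The macrophage markers summed to 12566 to 12614 CPM under iBRD9 + LPS and to 14035 to 14584 CPM under LPS. The part of such cells in the changes of the chains was not tested.

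dBRD9 raised p40 and lowered both chains of IL-27 under LPS alone. Il12b had 169.8, 189 and 205 CPM, all above LPS alone, with a log2 change of 0.57 (SE 0.0694, adjusted p = 3.7e-06, edgeR). Il27 had 262, 263 and 252 CPM, all below LPS alone, with a log2 change of -0.41 (SE 0.102, adjusted p = 0.0065, edgeR). Ebi3 had 38.6, 35.7 and 36.2 CPM and a log2 change of -0.26 (SE 0.0772, adjusted p = 0.022, edgeR). So 1 chain was called higher and 2 lower, where 16.6% of all genes were called in either direction (6.64% higher and 9.97% lower). The call for Ebi3 was lost with library totals alone (adjusted p = 0.080), without replicate 1 of LPS (adjusted p = 0.121), without replicate 2 of dBRD9 + LPS (0.095) and without its replicate 3 (0.083), all by edgeR. The 7 macrophage markers summed to 11259 to 11523 CPM under dBRD9 + LPS and to 14035 to 14584 CPM under LPS, and their part in these differences was not tested.

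The p35 and p19 chains missed the threshold with dBRD9. Il12a had 28.8, 28.5 and 29.0 CPM, below every LPS library, with a log2 change of -0.25 (95% interval -0.47 to -0.03, adjusted p = 0.13, edgeR). Il23a had 28.1, 25.1 and 31.3 CPM, which overlapped LPS alone, with a log2 change of -0.25 (95% interval -0.50 to 0.00, adjusted p = 0.19, edgeR). Il12a passed the threshold at nearly the same log2 fold change with DESeq2 (adjusted p = 0.047), with limma voom (0.017), in an edgeR fit of only these 2 groups (0.0013) and without both libraries that stood apart (0.030). Il23a passed it in the last 2 of these (0.0082 and 0.043).

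Set side by side, iBRD9 + LPS and dBRD9 + LPS differed in Il12a, Il23a, Il27 and Ebi3, while the dose of iBRD9 in each sample is unknown and the doses are not matched. Both groups, and Dex + LPS below, share the same LPS libraries as controls, and here the 2 compounds are set against each other. The log2 difference, iBRD9 minus dBRD9, was -3.54 for Il12a (SE 0.141), -3.06 for Il23a (SE 0.150), -1.10 for Il27 (SE 0.104) and -1.03 for Ebi3 (SE 0.0813). These 4 were called lower by edgeR, the largest adjusted p being 6.6e-09, where 55.6% of all genes were called (28.3% higher and 27.2% lower). Il12b, which was higher with either compound, differed by 0.16 (95% interval 0.02 to 0.30, adjusted p = 0.056, edgeR), and the libraries of the 2 groups overlapped. That difference passed the threshold with library totals alone (0.24, adjusted p = 0.0041), with limma voom (0.16, adjusted p = 0.025), in an edgeR fit of only these 2 groups (0.15, adjusted p = 0.015), without both libraries that stood apart (0.16, adjusted p = 0.0062) and without replicate 3 of dBRD9 + LPS (0.22, adjusted p = 0.017).

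Dex lowered 4 of the 5 chains under LPS. Il23a had 2.90, 2.64 and 2.88 CPM under Dex + LPS, 8.41% of LPS alone, with a log2 change of -3.57 (SE 0.158, adjusted p = 6.9e-14, edgeR). Il12a had 8.11, 7.64 and 7.77 CPM, 22.9% of LPS alone (log2 fold change -2.12, SE 0.121, adjusted p = 4.1e-12, edgeR). Il12b had 41.4, 35.9 and 36.7 CPM, 30.1% of LPS alone (log2 fold change -1.73, SE 0.0740, adjusted p = 3.9e-14, edgeR). All chains of IL-12 and IL-23 thus fell with Dex, and none of their libraries overlapped those with LPS alone. Leaving out both libraries that stood apart gave -3.59 for Il23a, -2.14 for Il12a and -1.79 for Il12b, all called.

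The pair that forms IL-27 was split by Dex. Il27 had 264, 194 and 179.8 CPM, all below LPS alone, with a log2 change of -0.70 (SE 0.103, adjusted p = 4.8e-06, edgeR). Replicate 1, one of the libraries that stood apart, was the highest, and without both of those libraries the log2 fold change was -0.88. Ebi3 had 55.8, 52.6 and 48.0 CPM, all above LPS alone, and was called higher with a log2 change of 0.24 (SE 0.0759, adjusted p = 0.0096, edgeR). The value for Ebi3 was 0.19 without both libraries that stood apart (adjusted p = 0.016) and 0.20 without replicate 2 of LPS, where the call was lost (adjusted p = 0.062). Here 55.4% of all genes were called (27.9% higher and 27.5% lower). The macrophage markers summed to 22417 to 23346 CPM under Dex + LPS and to 14035 to 14584 CPM under LPS, and their part in these differences was not tested. With a BRD9 compound added to Dex, the sum was 16955 to 18621 CPM for iBRD9 and 19235 to 22268 CPM for dBRD9.

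With Dex present, iBRD9 lowered the same 4 chains by less, and the p40 chain did not pass the test. Il12a had 4.31, 3.55 and 3.75 CPM under Dex + iBRD9 + LPS (log2 fold change against Dex + LPS -1.02, SE 0.153, adjusted p = 2.8e-05, edgeR). Il23a had 1.75, 1.03 and 1.54 CPM (-0.96, SE 0.243, adjusted p = 0.0043, edgeR), from 88 reads over the 3 libraries. It was the lowest Il23a of any LPS group of experiment 1. Il27 had 147, 136 and 134 CPM (-0.61, SE 0.104, adjusted p = 7.8e-05, edgeR, and -0.43 without both libraries that stood apart). Ebi3 had 28.5, 26.3 and 28.2 CPM (-0.91, SE 0.0787, adjusted p = 7.4e-09, edgeR). Il12b had 40.9, 36.8 and 33.9 CPM, which overlapped Dex + LPS, with a log2 change of -0.03 (95% interval -0.19 to 0.13, adjusted p = 0.78, edgeR). So 4 chains were called lower and 0 higher, where 34.7% of all genes were called (16.7% higher and 18% lower). With both libraries that stood apart left out, the values were -0.997 for Il12a, -0.94 for Il23a, -0.86 for Ebi3 and 0.03 for Il12b, with the same calls.

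With Dex present, dBRD9 lowered Il12a and Il27. Il12a had 5.13, 5.13 and 5.52 CPM under Dex + dBRD9 + LPS (log2 fold change against Dex + LPS -0.58, SE 0.142, adjusted p = 0.0074, edgeR). Il27 had 171, 159 and 139 CPM, with a log2 change of -0.44 (SE 0.103, adjusted p = 0.0046, edgeR). Without both libraries that stood apart the value for Il27 was -0.32 and that for Il12a -0.54, both called. Leaving out replicate 1 of Dex + LPS alone gave -0.25 for Il27, still called, and in an edgeR fit of only these 2 groups the call of Il27 was lost (adjusted p = 0.155). Ebi3 had 47.9, 45.8 and 42.5 CPM, all below Dex + LPS, with a log2 change of -0.20 (95% interval -0.35 to -0.04, adjusted p = 0.081, edgeR). It passed the threshold with DESeq2 (adjusted p = 0.036), with DESeq2 size factors in edgeR (0.048) and without replicate 3 of Dex + LPS (0.034). Il12b had 35.9, 36.0 and 36.9 CPM, and Il23a had 3.91, 2.87 and 2.69 CPM, both overlapping Dex + LPS and neither called (log2 fold changes -0.07 and 0.18). Leaving out both libraries that stood apart gave -0.18 for Ebi3, 0.0064 for Il12b and 0.0085 for Il23a, not called. Here 15.8% of all genes were called (6.51% higher and 9.28% lower).

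Between the 2 compounds with Dex present, edgeR called Il23a and Ebi3, where 16% of all genes were called (6.93% higher and 9.04% lower). Il23a was lower with iBRD9 than with dBRD9 by 1.13 on the log2 scale (difference -1.13, SE 0.234, adjusted p = 0.0018), and the difference for Ebi3 was -0.72 (SE 0.0787, adjusted p = 1.2e-06). The difference was -0.44 for Il12a (95% interval -0.77 to -0.11, adjusted p = 0.067), and it passed the threshold with DESeq2 (adjusted p = 0.013), with limma voom (0.049), with no filter (0.026), in a fit of only these 2 groups (0.033) and without both libraries that stood apart (0.045). For Il12b it was 0.03 (95% interval -0.12 to 0.19) and for Il27 -0.17 (95% interval -0.39 to 0.04), with overlapping libraries in both cases. Without both libraries that stood apart Il23a (-0.94) and Ebi3 (-0.68) were still called, while Il12b (0.03) and Il27 (-0.11) were not.

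The response of every chain to iBRD9 differed by the presence of Dex. The interaction, the log2 fold change of iBRD9 with Dex minus that without it, was 2.77 for Il12a (SE 0.217, adjusted p = 3.4e-09, edgeR) and 2.34 for Il23a (SE 0.306, adjusted p = 4.5e-06). It was 0.90 for Il27 (SE 0.146, adjusted p = 4.6e-05) and 0.37 for Ebi3 (SE 0.112, adjusted p = 0.013), and for Ebi3 it was 0.30 without replicate 3 of iBRD9 + LPS, where the call was lost (adjusted p = 0.054). For Il12b it was -0.77 (SE 0.103, adjusted p = 6.6e-06), from log2 fold changes of 0.73 without Dex and -0.03 with it. In this test 33.2% of all genes were called (17.3% higher and 16% lower). Without both libraries that stood apart the values were 2.80 for Il12a, 2.37 for Il23a, 1.08 for Il27, 0.42 for Ebi3 and -0.70 for Il12b, all called. The neutrophil marker sum, 0.940 to 2.31 CPM under iBRD9 + LPS, was 4.92 to 6.79 CPM under Dex + iBRD9 + LPS.

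Read the other way, Il12a was higher with Dex than without it when iBRD9, at an unlabelled dose, was present. The log2 fold change of Dex + iBRD9 + LPS against iBRD9 + LPS was 0.65 for Il12a (SE 0.179, adjusted p = 0.0048, edgeR), although replicate 2 of iBRD9 + LPS (3.69 CPM) lay within the range of the Dex libraries (3.55 to 4.31 CPM). Without that library the log2 fold change of Il12a was 1.03. Ebi3 was also called higher, at 0.62 (SE 0.0829, adjusted p = 1.6e-06). Il12b (-2.49, SE 0.0750, adjusted p = 1.2e-16) and Il23a (-1.22, SE 0.229, adjusted p = 1.5e-04) were called lower. Il27 differed by 0.20 (95% interval -0.01 to 0.42, adjusted p = 0.11), and was called without replicate 2 of iBRD9 + LPS (0.31, adjusted p = 0.027), with no filter (adjusted p = 0.019), in a fit of only these 2 groups (0.014) and without both libraries that stood apart (0.0020). In this comparison 49.8% of all genes were called (25.7% higher and 24.1% lower).

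With dBRD9, 1 interaction passed the test, that of Il12b at -0.64 (SE 0.103, adjusted p = 0.0011, edgeR), where 3.39% of all genes were called (1.82% higher and 1.57% lower). It was -0.57 and still called without both libraries that stood apart. The values of the others were -0.33 for Il12a, 0.42 for Il23a, -0.03 for Il27 and 0.06 for Ebi3, with 95% intervals that held 0. Leaving out both of those libraries gave -0.29, 0.25, 0.085 and 0.07, none called. Dex against no Dex with dBRD9 present gave log2 fold changes of -2.45 for Il12a, -2.37 for Il12b, -3.14 for Il23a and -0.73 for Il27, and 0.30 for Ebi3. All 5 were called by edgeR (largest adjusted p = 0.0019), in the directions seen without dBRD9, where 55.8% of all genes were called (29.1% higher and 26.7% lower). The values in that order were -2.44, -2.36, -3.33, -0.79 and 0.26 without both libraries that stood apart, all called.

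**Figure D2:**
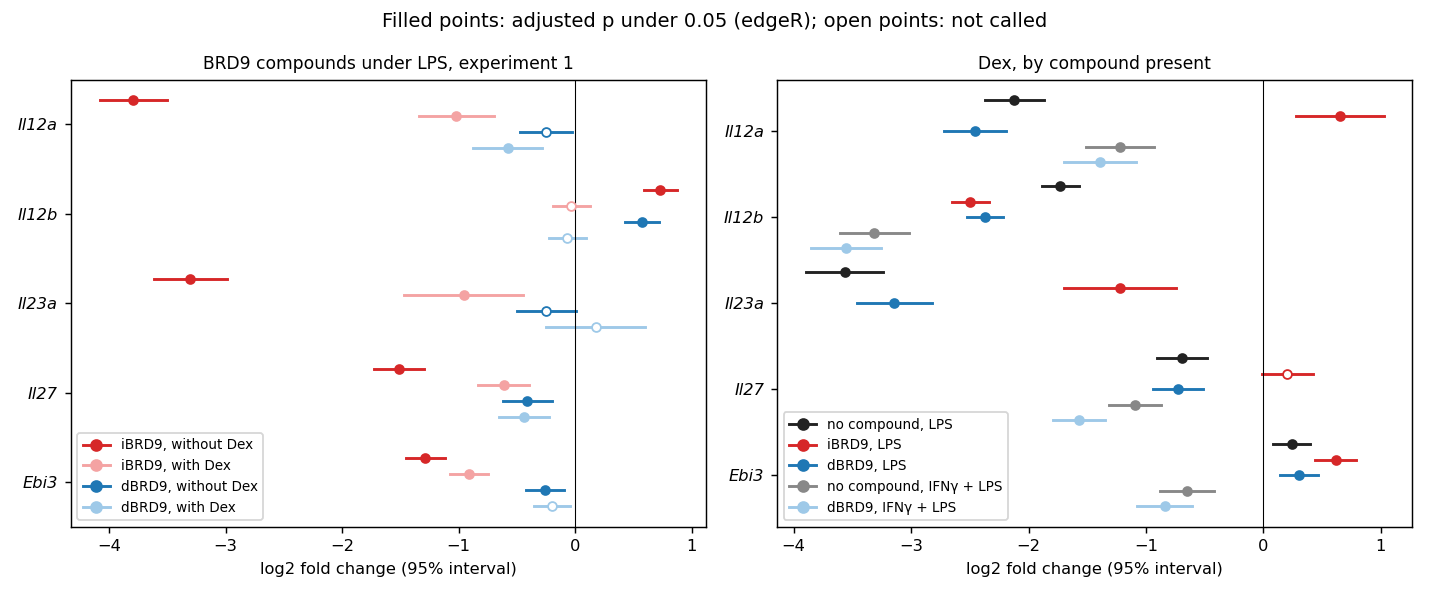
Log2 fold changes (x axis, edgeR) of the chain genes with 95% intervals as lines, for the BRD9 compounds under LPS in experiment 1 (left) and for Dex by the compound present in both experiments (right), with filled points at an adjusted p under 0.05 and open points otherwise. iBRD9 without Dex moved Il12a by -3.79 and Il12b by 0.73, and Dex moved Il12a by -2.12 without a BRD9 compound and by 0.65 with iBRD9.

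The order of the groups differed between chains of the same cytokine. Il12a was highest under LPS (34.2 ± 0.422 CPM, SD, n = 3), then dBRD9 + LPS (28.8 ± 0.241), Dex + LPS (7.84 ± 0.240), Dex + dBRD9 + LPS (5.26 ± 0.226), Dex + iBRD9 + LPS (3.87 ± 0.393) and iBRD9 + LPS (2.49 ± 1.04). Of these neighbours in the order of Il12a, only the last 2 groups overlapped. Il12b was highest under iBRD9 + LPS (209.5 ± 5.13 CPM) and dBRD9 + LPS (188 ± 17.6), which overlapped, then LPS (126 ± 4.32). The 3 groups with Dex, at 36.3 to 38.0 CPM, followed without a gap between them. Il23a stood at 33.4 ± 2.49 CPM under LPS and 28.2 ± 3.08 under dBRD9 + LPS, which overlapped, and at 1.44 to 3.42 CPM in the other 4 groups. Il27 stood at 344 ± 7.20 CPM under LPS, then at 259 ± 5.96 under dBRD9 + LPS and 213 ± 45.2 under Dex + LPS, which overlapped. That overlap came only from replicate 1 of Dex + LPS (264 CPM), one of the libraries that stood apart. Il27 was 157 ± 16.2 under Dex + dBRD9 + LPS, 139 ± 6.82 under Dex + iBRD9 + LPS and 121 ± 15.3 under iBRD9 + LPS, where each overlapped its neighbour. Ebi3 was highest under Dex + LPS (52.1 ± 3.90 CPM) and lowest among LPS groups under iBRD9 + LPS (18.1 ± 2.17), and its libraries under Dex + dBRD9 + LPS and under LPS overlapped.

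The balance of chains within each library showed how far partners moved apart, and did not depend on the scaling between libraries. Under LPS the 3 libraries held 3.35, 3.06 and 3.16 times as much Il12b as Il12a per kb. Under iBRD9 + LPS they held 96.1, 49.2 and 96.1 times as much. Those 3 libraries lay above every other LPS library of experiment 1, the next being those with Dex and iBRD9 at 7.84 to 8.96. The log2 ratio, with 0.5 counts added to each gene, was higher with iBRD9 by 4.58 without Dex (23.9-fold) and by 0.99 with Dex, a mean of 2.78 (two-sided exact permutation test within both strata, p = 0.005, the smallest that 400 arrangements can give). Adjusted over the 15 ratio tests that p is 0.011.

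dBRD9 also raised the ratio of Il12b to Il12a. Its libraries had 5.09, 5.72 and 6.11 without Dex and 6.05, 6.08 and 5.78 with it, all above the groups without dBRD9 (3.06 to 3.35 and 4.06 to 4.42). The log2 ratio was higher by 0.82 without Dex and by 0.51 with it (mean 0.66, exact permutation p = 0.005, adjusted p = 0.011). Dex changed the same ratio by 0.39 without a BRD9 compound, by -3.20 with iBRD9 and by 0.08 with dBRD9, and its mean of -0.91 did not pass the test (exact permutation p = 0.099, adjusted p = 0.12, smallest p possible 0.00025). Since the signs differed between strata, that mean cannot show an effect within any stratum, and none was tested alone. Without both libraries that stood apart the means were 2.80 for iBRD9 and 0.68 for dBRD9, both called, and -0.93 for Dex, not called.

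The ratio of Il12b to Il23a, the chains of IL-23, was also higher with iBRD9. Per kb it was 4.33 ± 0.354 under LPS and 73.7 ± 21.2 under iBRD9 + LPS (SD, n = 3). The log2 ratio was higher by 4.04 without Dex and by 0.95 with it, a mean of 2.50 (exact permutation p = 0.005, adjusted p = 0.011). With dBRD9 the mean difference was 0.30 (exact permutation p = 0.14, adjusted p = 0.16), with 0.82 without Dex and -0.21 with it. Dex changed this ratio by 1.83 without a BRD9 compound, by -1.27 with iBRD9 and by 0.80 with dBRD9, and its mean of 0.45 did not pass the test (exact permutation p = 0.23, adjusted p = 0.24). For dBRD9 and for Dex the signs differed between strata, so these means cannot show an effect within any stratum, and none was tested alone. The ratio of Il23a to Il12a, whose chains both join with p40, was lowered by Dex. Its differences were -1.44, -1.94 and -0.72 without a BRD9 compound, with iBRD9 and with dBRD9 (mean -1.36, exact permutation p = 0.00025, the smallest possible, adjusted p = 0.0019). The mean difference of this ratio was 0.29 with iBRD9 and 0.36 with dBRD9, and neither passed the test (exact permutation adjusted p = 0.11 and 0.083). The called means were 2.52 and -1.42 without both libraries that stood apart. Of the means that were not called, Il12b to Il23a was then 0.41 with dBRD9 and 0.50 with Dex, and Il23a to Il12a was 0.29 with iBRD9 and 0.27 with dBRD9.

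For the IL-27 pair the balance moved with Dex and with dBRD9, and with iBRD9 its differences had opposite signs without and with Dex. Ebi3 stood at 0.117, 0.109 and 0.114 of Il27 per kb under LPS and at 0.135, 0.131 and 0.132 under iBRD9 + LPS. The log2 difference with iBRD9 was 0.23 without Dex, where its libraries lay above those with LPS alone. With Dex it was -0.32, where its libraries (0.171 to 0.186) lay below those of Dex + LPS. The mean was -0.05 (exact permutation p = 0.67, adjusted p = 0.67), and -0.10 without both libraries that stood apart. Since the signs were opposite, that mean cannot show an effect within either stratum, and neither was tested alone. Dex raised the ratio, to 0.187, 0.240 and 0.236 under Dex + LPS, where replicate 1 is one of the libraries that stood apart. Its differences were 0.96, 0.41 with iBRD9 and 1.03 with dBRD9 (mean 0.80, exact permutation p = 0.00025, the smallest possible, adjusted p = 0.0019), and the mean was 0.85 without both libraries that stood apart. dBRD9 raised it by 0.15 without Dex and by 0.23 with it (mean 0.19, exact permutation p = 0.005, adjusted p = 0.011), and the mean was 0.15 without both libraries that stood apart.

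Ebi3 against Il12a, the pair described for IL-35, was higher both with Dex and with iBRD9. Per kb the ratio was 1.90 ± 0.117 under LPS, 9.80 ± 0.594 under Dex + LPS, 11.5 ± 2.95 under iBRD9 + LPS and 10.6 ± 0.718 under Dex + iBRD9 + LPS (SD, n = 3). The mean log2 difference was 1.67 for Dex (exact permutation p = 0.0033, adjusted p = 0.011) and 1.33 for iBRD9 (exact permutation p = 0.015, adjusted p = 0.028). Without replicate 3 of Dex + iBRD9 + LPS the iBRD9 value was 1.31 and its call was lost (exact permutation adjusted p = 0.056), and without replicate 2 of that group the adjusted p lay at the threshold of 0.05. For dBRD9 the mean was 0.18 (exact permutation p = 0.065, adjusted p = 0.098), and without replicate 1 of LPS (0.21) the adjusted p lay at that threshold. The separate differences were 0.11 for iBRD9 in the presence of Dex, against 2.55 in its absence, and -0.09 for Dex in the presence of iBRD9, against 2.36 in its absence. The means for Dex and iBRD9 were 1.65 and 1.34 without both libraries that stood apart, both called, and that for dBRD9 was 0.17.

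**Figure D3:**
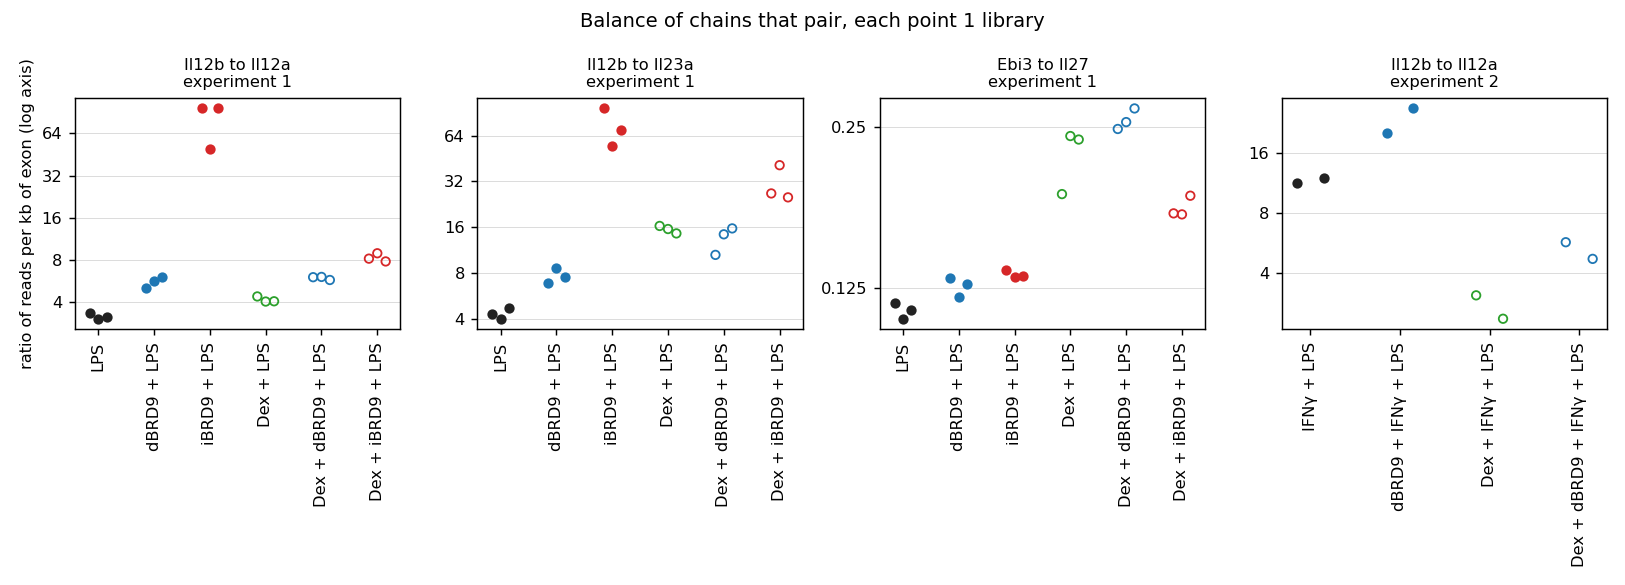
Ratio of reads per kb of exon between chains that pair (y axis, log scale), with 1 point per library and open points for groups with Dex, for Il12b to Il12a, Il12b to Il23a and Ebi3 to Il27 in experiment 1 and Il12b to Il12a in experiment 2. The iBRD9 + LPS libraries reach 49.2 to 96.1 for Il12b to Il12a, against 3.06 to 3.35 under LPS.

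In experiment 2, where IFNγ was combined with LPS, the p19 chain of IL-23 was almost absent. Il23a had 2 reads in each of the 2 IFNγ + LPS libraries, which over both is 0.133 CPM of TMM-scaled totals (exact 95% Poisson interval 0.0363 to 0.341, for counting error only). Over the 10 libraries it had 0 to 2 reads, and 0 in both vehicle libraries, where the floor of 3 reads over the group is 0.0694 CPM and the upper end of the exact interval 0.0853 CPM. In experiment 1 the 3 LPS libraries had held 2256 reads of Il23a, or 33.6 CPM of TMM-scaled totals (interval 32.3 to 35.04). The experiments differ in IFNγ, in the table they were deposited in and in the stromal markers given above, and these cannot be told apart. Il23a was not tested in experiment 2, since it did not pass the filter.

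The other 4 chains were induced by IFNγ + LPS. Il12a had 45.8 and 41.1 CPM and Il12b had 596 and 568 CPM, against 0 reads in both vehicle libraries. These are at least 627-fold and at least 8389-fold higher, with 3 reads over the vehicle group as the floor. Il27 rose from 0.503 and 0.470 to 835 and 799 CPM, a 1678-fold difference of means. Ebi3 rose from 41.8 and 37.6 to 122 and 117 CPM, a 3.01-fold difference. All 4 were called higher by edgeR (largest adjusted p = 2.8e-09), where 68.5% of all 13313 genes tested were called (32.8% higher and 35.6% lower). Each of these calls was kept when any 1 of the 4 libraries was left out, with 1.52 to 1.67 for Ebi3 on the log2 scale. Il12b exceeded Il12a by 11.2 and 12.0 times per kb in the 2 libraries, and Ebi3 stood at 0.129 and 0.130 of Il27.

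Dex lowered all 4 chains tested under IFNγ + LPS. Il12b had 63.5 and 53.7 CPM, 10.1% of IFNγ + LPS alone, with a log2 change of -3.31 (SE 0.138, adjusted p = 3.5e-10, edgeR). Il12a had 17.7 and 19.6 CPM (-1.22, SE 0.136, adjusted p = 1.0e-05). Il27 had 369.6 and 397 CPM (-1.09, SE 0.103, adjusted p = 1.1e-06). Ebi3 had 71.8 and 80.8 CPM (-0.65, SE 0.109, adjusted p = 4.0e-04), so that here it was called lower, and in experiment 1 higher. All 4 calls were kept when any 1 library of these groups was left out, with -0.74 to -0.59 for Ebi3. The difference between the experiments was not tested, since the tables were fitted apart. Ebi3 averaged 39.7 CPM in the vehicle group of experiment 2 and 8.82 CPM in that of experiment 1. Its call with Dex in experiment 1 was lost without replicate 2 of LPS (adjusted p = 0.062, edgeR). In this comparison 19.9% of all genes were called (10.7% higher and 9.21% lower). The neutrophil markers summed to 11.6 to 17.1 CPM with Dex and 32.8 to 34.9 CPM without it. The stromal markers summed to 38.1 to 45.6 CPM with Dex and 59.7 to 66.4 CPM without it. The part of such cells in the changes of the chains was not tested.

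dBRD9 gave 0 calls among the 4 chains under IFNγ + LPS alone with edgeR, where 1.83% of all genes were called (0.819% higher and 1.01% lower). At an unadjusted p under 0.05 it was 3 chains, and DESeq2 called 1. Il12b had 717 and 909.7 CPM, both above IFNγ + LPS alone (log2 fold change 0.48, 95% interval 0.22 to 0.75, adjusted p = 0.070, edgeR). Il12a had 31.1 and 29.6 CPM, both below it (-0.52, 95% interval -0.80 to -0.24, adjusted p = 0.065, edgeR). Il12b was called by DESeq2 (adjusted p = 0.018), with no filter (0.0062) and in an edgeR fit of only these 2 groups (0.033), and Il12a by limma voom (adjusted p = 0.037) and in that 2-group fit (0.021). Il27 had 899.8 and 1007 CPM (0.22, 95% interval 0.01 to 0.44) and Ebi3 had 125 and 118 CPM (0.02, 95% interval -0.21 to 0.25). With dBRD9 the neutrophil markers summed to 16.5 to 19.7 CPM, against 32.8 to 34.9 CPM without it. The stromal markers summed to 48.5 to 49.6 CPM, against 59.7 to 66.4 CPM, and the part of such cells was not tested.

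With Dex present, dBRD9 gave 10.8 and 12.3 CPM of Il12a (log2 fold change against Dex + IFNγ + LPS -0.69, SE 0.146, adjusted p = 0.031, edgeR). It was the 1 chain called there, where 1.4% of all genes were called (0.233% higher and 1.16% lower), and the call was lost when any 1 of the 4 libraries was left out (values -0.78 to -0.60). Il12b had 71.6 and 66.9 CPM, Il27 had 313 and 328 CPM, and Ebi3 had 67.7 and 67.9 CPM, none of them called. Dex with dBRD9 present lowered the 4 chains (Il12a -1.39, Il12b -3.55, Il27 -1.57, Ebi3 -0.84), where 28.4% of all genes were called (14% higher and 14.4% lower). No interaction of Dex and dBRD9 was called for a chain, in a test that called 1 gene of 13313 (0.00751%) with edgeR and 35 with DESeq2. The values lay between -0.48 (Il27, 95% interval -0.79 to -0.18, unadjusted p = 0.0042, the 1 chain with an unadjusted p under 0.05) and -0.17 (Il12a), and DESeq2 called 0 chains.

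The ratio of Il12b to Il12a in experiment 2 was higher with dBRD9, as in experiment 1, and lower with Dex, where in experiment 1 the differences with Dex had both signs (0.39, -3.20 with iBRD9 and 0.08 with dBRD9). Per kb it was 19.9 and 26.6 with dBRD9 + IFNγ + LPS, 3.10 and 2.37 with Dex + IFNγ + LPS, and 5.71 and 4.72 with Dex + dBRD9 + IFNγ + LPS. The log2 ratio was higher with dBRD9 by 0.99 without Dex and by 0.93 with it, and lower with Dex by values of -2.10 and -2.15. For Ebi3 to Il27 the differences with dBRD9 were -0.20 without Dex and 0.09 with it, against 0.15 and 0.23 in experiment 1. For Ebi3 to Il12a they were 0.54 and 0.52, against -0.01 and 0.38 in experiment 1. Dex gave 0.44 without dBRD9 and 0.73 with it for Ebi3 to Il27, and 0.57 and 0.55 for Ebi3 to Il12a. With 2 libraries a group, the differences of experiment 2 are given as values with no test.

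**Figure D4:**
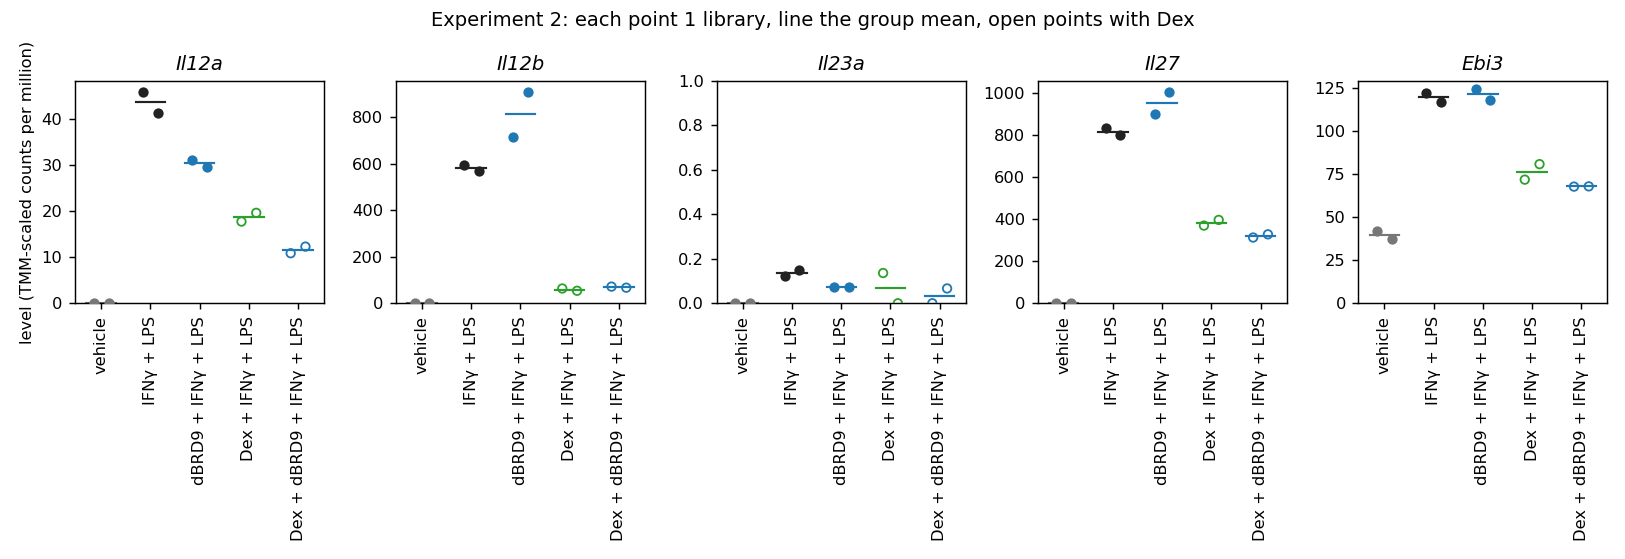
Level of each chain gene in the 10 libraries of experiment 2 in TMM-scaled CPM on linear axes that start at 0, with 1 point per library, a line at the group mean and open points for groups with Dex. Il23a stays at 0.148 CPM or less in every library, while Il12b under IFNγ + LPS (568 and 596 CPM) stands above its level with Dex (53.7 and 63.5 CPM).

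Genes that act around these chains were described as lists of 11 receptor and signalling genes and 30 regulators. LPS raised 25 and lowered 3 of the 30 regulators, where 36.1% of all genes were called higher and 39.3% lower, with a median log2 fold change of 1.68 beside -0.05 over all genes. Among them Irf1, a transcription factor described as acting on Il12a, Il12b and Il27, rose by 4.07 on the log2 scale and Nfkbiz, an inducible IκB protein, by 6.96 (adjusted p at most 9.7e-25 in both, edgeR). iBRD9 lowered 16 and raised 7 of the 30 regulators (30.5% and 31.4% of all genes), with a median of -0.29 beside 0.01. Irf4 was at -2.94, Irf7 at -2.02 and Stat2 at -1.93, while Jun, an AP-1 subunit, was higher at 1.93. Rel, the NF-κB subunit known for its part in Il12b and Il23a transcription, averaged 214 CPM with iBRD9 and 207 CPM under LPS (log2 fold change 0.05, adjusted p = 0.83, edgeR). Ifnb1, which encodes interferon-beta, averaged 0.453 CPM against 6.01 CPM (log2 fold change -3.75, SE 0.288, adjusted p = 4.3e-10, edgeR).

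With dBRD9, 10 of the 30 regulators were called lower and 3 higher under LPS (9.97% and 6.64% of all genes, median -0.08 beside 0.00). With Dex it was 15 lower and 13 higher (27.5% and 27.9% of all genes, median -0.13 beside 0.01), with Irf8, a partner of IRF1 at Il12b, at -1.61 and Irf4 at -3.68. Il10, an inhibitor of IL-12 production, fell with each, by 2.54 with Dex, by 1.71 with iBRD9 and by 1.21 with dBRD9 on the log2 scale (all called by edgeR). The interaction of Dex and iBRD9 was called higher for 15 regulators and lower for 6 (17.3% and 16% of all genes, median 0.22 beside -0.01). Among them were Ifnb1 at 3.05, Irf4 at 2.32, Irf7 at 2.001, Stat2 at 1.72 and, in the other direction, Jun at -1.41. Under IFNγ + LPS, Irf8 averaged 6634 CPM, against 112 CPM under LPS in experiment 1, in tables that were scaled apart. dBRD9 under IFNγ + LPS gave 1 call among the 30 regulators (Maf, -0.55), which was lost when any 1 of the 4 libraries was left out.

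Of the receptor and signalling genes, 9 were tested in experiment 1 and 10 in experiment 2. Il12rb1, the receptor chain shared by IL-12 and IL-23, was too low for a test in experiment 1 (group means of 0.130 to 0.403 CPM) and rose by 3.56 on the log2 scale with IFNγ + LPS (SE 0.282, adjusted p = 1.3e-08, edgeR). Il23r, its partner for IL-23, averaged at most 0.404 CPM in any group and was not tested. LPS raised 6 and lowered 2 of the 9 (36.1% and 39.3% of all genes), iBRD9 raised 2 and lowered 4 (31.4% and 30.5%), Dex raised 3 and lowered 4 (27.9% and 27.5%), and dBRD9 raised 1 and lowered 1 (6.64% and 9.97%).

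Across the 18 LPS libraries of experiment 1, the 3 highest correlations were between chains that do not pair. Pearson's r of log2(CPM + 1) was 0.95 between Il12a and Il27, 0.93 between Il12a and Il23a and 0.84 between Il23a and Il27. Between chains that pair it was 0.66 for Il27 and Ebi3, 0.65 for Il12b and Il23a, 0.56 for Il12a and Ebi3 and 0.35 for Il12a and Il12b. For Il12b and for Ebi3 the chain with the highest r was thus a partner, Il23a and Il27. Ebi3 and Il12b had an r of -0.48. These libraries share groups, so they are not independent points, and r is given as a description.

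Among 7302 genes with a mean of at least 10 CPM in these 18 libraries, the patterns most like each chain were found by the same r. For Il12a they were Endod1 (0.990), Ptx3 (0.989) and Rin2 (0.987). For Il12b they were Hsp90aa1 (0.993), Slc25a1 (0.988) and Atxn10 (0.986), and for Il23a Gpc1 (0.991), Cyb5b (0.990) and Itgax (0.989). For Il27 they were Cst7 (0.979), Tagln2 (0.974) and Pgap2 (0.973), and for Ebi3 Dennd1c (0.983), Osbpl3 (0.976) and Hdgf (0.976). No gene was among the 3 nearest of more than 1 chain.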

How the data were processed

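RNA of 31 macrophage libraries was sequenced in 2 experiments, and the authors deposited raw counts per Ensembl gene with 1 column per library. The submitters' processing notes name mm10 as build and list fastp, STAR and DESeq2. Not given in the sources used here are the counting step, annotation release and strand setting. Symbols, positions and exon lengths came from GENCODE M21 (mm10), which matched 97.8% of 35275 and 99.8% of 54532 identifiers.

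Samples were grouped by their labels, with a separate fit for each experiment. The filter was filterByExpr (minimum count 10, minimum total 15), with 12662 and 13313 genes kept. Counts were scaled by TMM and tested by edgeR 4.0.16 quasi-likelihood F tests in R 4.3.3, and called means a p under 0.05 after Benjamini-Hochberg adjustment over every gene in the fit. Where no tool stands beside a gene's adjusted p, it is edgeR's. The script was tested on simulated data with changes of known size. For dBRD9 + IFNγ + LPS against IFNγ + LPS it recovered 40% of 1.5-fold and 80% of 2-fold changes, with 7.69% of calls false. For iBRD9 + LPS against LPS the values in that order were 76%, 93% and 6.63%. Common variation between replicates (edgeR's BCV) was 6.79% for experiment 1 and 10.6% for experiment 2, on 14 and 5 residual degrees of freedom. Depth was 19.3 to 29.9 M and 14.5 to 17.9 M counts.

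Log2 ratios of chains, with 0.5 counts added, were tested by two-sided exact permutation within strata of the other compound, with adjustment over 15 tests. Alternatives were DESeq2 size factors, library totals, DESeq2 1.42.0, limma 3.58.1 voom, no filter, only the groups compared, the replicate number as a block, each sample left out, and both samples that stood apart left out. For ratios, 2 counts were added. Likeness with library totals alone was added after seeing the data. Besides the 5 chains, up to 4 called members of each list could be named, by largest absolute log2 fold change among those reaching 10 CPM, and Irf1, Irf8, Rel, Ifnb1 and Il10 in any comparison. For likeness the 3 nearest genes were named. Members, lists and the 2 samples left out were chosen with earlier results of these data known.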

Additional observations from a re-analysis of the deposited data

Results flagged for a closer look

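The effect of iBRD9 differed between cells with and without Dex for each of the 5 chains, by the interaction test in edgeR. That test called 33.2% of all genes, and its call of Ebi3 was lost without replicate 3 of iBRD9 + LPS (edgeR adjusted p = 0.054). The difference between the log2 fold changes was 2.77 for Il12a, 2.34 for Il23a, 0.90 for Il27 and 0.37 for Ebi3, and -0.77 for Il12b. The dose of iBRD9 in each sample is not labelled, and a difference in dose cannot be told apart from Dex. For dBRD9 the effect differed for Il12b, at -0.64, where 3.39% of all genes were called.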

How the results depend on the processing

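Among values of the chain genes under alternatives, 1127 kept direction and side of the threshold, 28 passed it newly, 12 lost it and 13 changed sign, all of the last uncalled. They were, for Il12b, Dex + iBRD9 + LPS against Dex + LPS (0.044 with library totals, 0.032 without both samples that stood apart, 0.032 and 0.028 with 1 sample left out), Dex + dBRD9 + LPS against Dex + LPS (0.0064 without both) and Dex + iBRD9 + LPS against Dex + dBRD9 + LPS (-0.039 to 0.095 with 1 sample left out). For Il23a it was Dex + dBRD9 + LPS against Dex + LPS (-0.015), for Il27 the interaction of Dex and dBRD9 (0.085 without both, and -0.14 to 0.15, with 0.043 among them, with 1 sample left out), and for Ebi3 dBRD9 under IFNγ + LPS (-0.011 with library totals, and -0.026 to 0.063, with -0.012 among them, with 1 sample left out).

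Counts of called genes moved by over 1.5 times with only the groups compared, to 3305 for dBRD9 + LPS against LPS (from 2103), 2283 for Dex + iBRD9 + LPS against Dex + LPS (from 4390), 579 for Dex + dBRD9 + LPS against Dex + LPS (from 1999) and 211 for the interaction of Dex and dBRD9 (from 429). Without both samples that stood apart the first was 3465 and the last 947. Under IFNγ + LPS, dBRD9 gave 243 calls, 390 without the filter and 410 with only the groups compared. With Dex it gave 186, and 285 by DESeq2, 515 and 511. The interaction gave 1, and 35, 144 and 38. Leaving out 1 sample gave 1281 to 1632 for Dex + iBRD9 + LPS against Dex + dBRD9 + LPS (from 2022), 266 to 890 for the interaction of Dex and dBRD9, and, under IFNγ + LPS, 1530 to 1912 for Dex (from 2655), 65 to 90 for dBRD9, 33 to 180 for dBRD9 with Dex, 1993 to 2810 for Dex with dBRD9 (from 3775) and 0 to 9 for the interaction. The causes were not tested, and fits with samples or groups left out also hold fewer samples.

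Replicate numbers showed no clear pairing of the samples. With 3 or 2 libraries a group, and no label for animal or culture, this check cannot exclude a pairing. Deviations of same-numbered samples of different groups correlated over 0.1 in 3 of 63 comparisons in experiment 1, with 2 of the 3 from Dex + LPS and Dex + dBRD9 + LPS, and in 2 of 20 in experiment 2, which are 1 pair of groups with the same r, since 2 replicates mirror each other. With the replicate block the Il12a call of Dex + dBRD9 + IFNγ + LPS against Dex + IFNγ + LPS was lost (-0.69, adjusted p = 0.059), and no other call of a chain changed. For the ratios the block allows fewer arrangements, and 6 missed the threshold at unchanged values: iBRD9 (2.78) and dBRD9 (0.66) on Il12b to Il12a, iBRD9 on Il12b to Il23a (2.50), dBRD9 on Ebi3 to Il27 (0.19), Dex on Ebi3 to Il12a (1.67, adjusted exact permutation p = 0.067 in these) and iBRD9 on Ebi3 to Il12a (1.33, 0.12). Leaving out 1 sample gave 1.26 to 1.45 for iBRD9 and 0.15 to 0.22 for dBRD9 on Ebi3 to Il12a, and 0.20 to 0.37 for iBRD9 and 0.27 to 0.43 for dBRD9 on Il23a to Il12a, with 1 change of call in each.

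With library totals the median log2 fold change of all genes was -0.56 for LPS against vehicle (from -0.05), -0.76 for IFNγ + LPS against vehicle (from -0.11) and 0.14 for iBRD9 + LPS against LPS (from 0.01). The share of calls that were higher became 22.96% (from 47.9%), 25.2% (from 47.9%) and 63.1% (from 50.7%). It became 57.4% for dBRD9 (from 39.99%), 65.1% for iBRD9 with Dex (from 48.1%), 65.5% for dBRD9 with Dex (from 41.2%) and 62.5% for Dex with dBRD9 (from 52.1%). Under IFNγ + LPS it became 64.3% for Dex (from 53.8%), 34.3% for dBRD9 (from 44.9%) and 63.3% for Dex with dBRD9 (from 49.2%, and 39.0% with DESeq2 size factors). At 0 to 2 reads a library, differences in Il23a between groups of experiment 2 were not detectable.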
